A study of Mus musculus with 10 samples.

Results

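The genes of the cytosolic ribosomal proteins (RPs) were followed in mouse ureteric bud (UB) organoids, in collecting duct (CD) organoids and in adult mouse CD cells (adult mCD). They were taken by symbol and annotation alone, with no expression value: a gene counted as a member when the deposited table listed it as protein_coding and its symbol was Rpl or Rps with a number and at most 1 of the letters a, x and l, or was Rpsa, Rplp0, Rplp1 or Rplp2. This rule found 68 of the 39273 genes in the table, 25 encoding proteins of the small subunit and 43 of the large subunit. Another 14 genes carried a symbol of the rule but a different annotation in the table, among them Rps18, Rps24, Rps26, Rpl7 and Rpl11, and were kept apart. The edgeR test covered the 67 members with at least 10 counts over all libraries, that is, all but the retrogene Rpl10l, which had 1 count.

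RNA-seq libraries were compared from 5 groups with 2 libraries each. UB organoids were grown from UB progenitor cells of E11.5 kidneys and harvested after 5, 10 or 20 days in mUBCM, the medium that keeps UB organoids in a branching progenitor state. CD organoids were UB organoids that, by the study's methods, had been moved to a differentiation medium at day 10. The day 20 UB organoids were thus not their starting material. Adult mCD were sorted from kidneys of Hoxb7-Venus mice aged 2 months, a line in which the Hoxb7 promoter marks the UB and its CD derivatives. The labels give all 10 libraries the same entries, a C57BL/6 x Swiss Webster background, one Wnt11-RFP reporter allele and an embryonic age of day 11, and call them organoids, which for adult mCD goes against the series' own design text. Nothing in the sources used here says whether the libraries of a group came from separate animals or cultures, so that p-values measure only the spread between these libraries.

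Every cytosolic ribosome carries 1 copy of most RPs on each subunit, around an RNA core made by RNA polymerase I and III. RP mRNAs are known as some of the most abundant and most evenly expressed transcripts of growing cells, and they start with a run of pyrimidines, the 5′ terminal oligopyrimidine (TOP) motif, through which mTOR signalling sets their translation. RP mRNA levels are commonly high in proliferating progenitors and lower in differentiated cells. An mRNA level does not measure ribosome number or translation, neither of which was assayed here.

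Start regions are shown for some members, because a pyrimidine run there is the feature that RP genes are best known to share. These members were not picked by a rule. Most of them carry such a run, so that they do not stand for all members. The RefSeq table for GRCm38.p6 held a promoter window of 300 bases for 52 of the 68 members. Each sequence runs from 40 bases before the annotated start to 20 bases after it, and capitals mark a run of at least 8 C or T within 5 bases of the start.
Rplp2 (chr7:141447611-141447670, plus strand): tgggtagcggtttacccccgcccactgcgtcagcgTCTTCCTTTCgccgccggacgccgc
Rps27 (chr3:90213629-90213688, minus strand): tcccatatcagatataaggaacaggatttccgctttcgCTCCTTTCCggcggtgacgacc
Rps6 (chr4:86857348-86857407, minus strand): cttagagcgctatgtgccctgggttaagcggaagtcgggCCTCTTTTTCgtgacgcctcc
Rpl28 (chr7:4792925-4792984, plus strand): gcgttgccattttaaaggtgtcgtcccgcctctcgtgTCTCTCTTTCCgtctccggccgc
Rpl38 (chr11:114668540-114668599, plus strand): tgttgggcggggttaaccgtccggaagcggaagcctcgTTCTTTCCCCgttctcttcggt
Rpl35 (chr2:39005112-39005171, minus strand): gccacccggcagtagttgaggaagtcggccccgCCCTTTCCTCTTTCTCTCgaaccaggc
Rps27l (chr9:66946046-66946105, plus strand): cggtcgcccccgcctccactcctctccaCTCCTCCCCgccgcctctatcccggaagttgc
Rpl3l (chr17:24727786-24727845, plus strand): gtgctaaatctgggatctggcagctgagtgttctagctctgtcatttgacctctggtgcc
Such a run was found in 17 of the 52 member windows (32.7%) and in 9.3% of all 27025 windows. It held the annotated start base itself, as a TOP motif does, in 13 of the 17, but in Rps27l the run ended before the start. Rpl3l, a form of Rpl3 known from heart and skeletal muscle, had none. The hexamer CTTTCC on the given strand lay in 19 member windows (36.5%), against 14% of all windows. CCGGAAG, a core of ETS and GABP sites, lay on either strand in 20 (38.5%), against 9.12%. TATAAA between 40 and 15 bases before the start was in 0 of 52 member windows and in 2.22% of all windows. The motifs overlap, since CTTTCC can lie inside the pyrimidine run.

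The libraries held between 11913613 and 24536676 counts, and those of days 5 and 10 were deeper than the other 6. Levels are given as counts-per-million (CPM). The limit of detection was set at 3 counts, or 0.122 to 0.252 CPM of the library total (counting error only). RNA and library kits are QIAgen RNeasy and TruSeq in the labels but Direct-zol and KAPA Stranded mRNA in the study's methods, and the kit behind each library could not be settled. Mitochondrial genes took 0.969 to 1.58% of the counts at days 5 and 10, 3.10 to 3.39% at day 20 and in CD organoids, and 9.64 and 9.86% in adult mCD. The summed level of 6 principal cell markers was 117 to 223 CPM of the library total in UB organoids, 1164 and 1290 in CD organoids and 6668 and 6967 in adult mCD. Markers of cells outside the CD also differed. In adult mCD, 8 proximal tubule markers summed to 7029 and 8710, against 8.19 to 42.3 in the other libraries, and 4 endothelial markers to 396 and 400.5, against at most 2.62. Sums of 5 stroma markers were 9.25 to 17.9 in UB organoids, 124 and 66.4 in CD organoids and 58.2 and 63.2 in adult mCD, and those of 4 leukocyte markers 2.45 to 14.96, 54.1 and 48.2, and 43.6 and 43.3. In these mixed RNAs, fewer cells of a type and less RNA per cell cannot be told apart, and the part of other cells in the results for CD organoids and adult mCD was not tested.

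The part of each library's counts that fell on the 68 RP genes shrank from the youngest UB organoids to the differentiated cells. It was 4.11 and 3.99% at day 5, 2.96 and 2.52% at day 10, 2.48 and 2.58% at day 20, 1.18 and 1.18% in CD organoids, and 0.935 and 0.972% in adult mCD. The means were 4.05 ± 0.0847% (SD, n = 2), 2.74 ± 0.314%, 2.53 ± 0.0714%, 1.18% and 0.953 ± 0.0257% in this order. The libraries of neighbouring groups did not overlap except those of days 10 and 20, where both day 20 values lay near the lower day 10 value. The share on RPs was thus 4.25 times as large at day 5 as in adult mCD. Shares are of the library total without a composition factor, so that they depend on the other genes in each library. Over the same groups the split between the subunits hardly moved, with small subunit genes taking between 37.6 and 39.7% of the RP counts of every library.

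**Figure D1:**
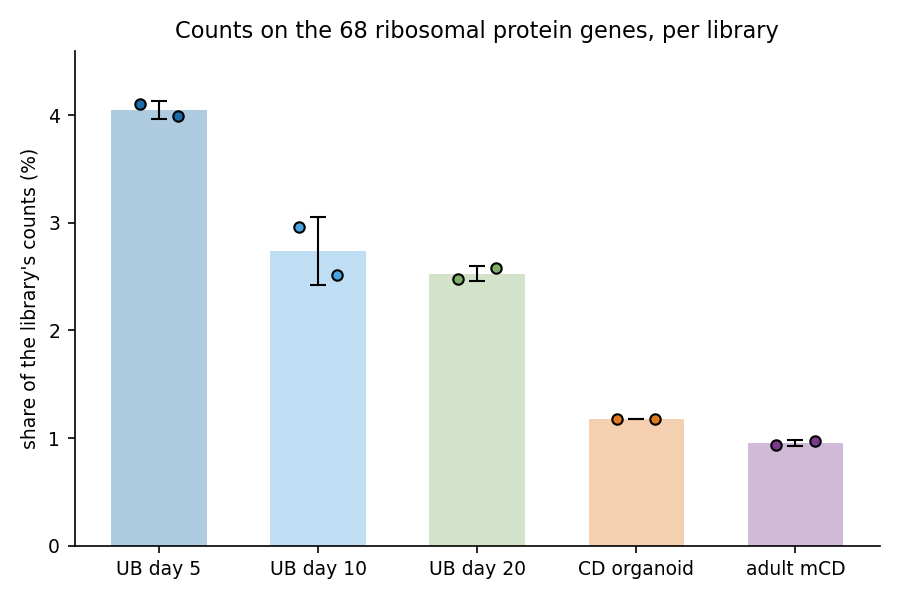
Share of each library's counts (%, y axis) that fell on the 68 RP genes, by group (x axis); bars are means, points the 2 libraries and error bars the SD. The day 5 libraries lie near 4%, those of days 10 and 20 between 2.48 and 2.96%, and those of CD organoids and adult mCD at or below 1.18%.

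Levels of single members were compared after transcript length was taken into account. From here on CPM include the TMM composition factors. CPM per kilobase of the principal transcript had a median of 339 over the 67 tested members, and 44 of them lay between 0.5 and 2 times that median. Rplp1, the acidic stalk protein P1, was the highest at 1174 CPM per kb, followed by its partner Rplp2 at 1022 and by Rps15, near the decoding centre, at 1001. At the other end, 3 members lay far below the rest, Rps10 at 6.87, Rpl24 at 1.41 and Rpl3l at 0.234 CPM per kb. Rps10 and Rpl24 encode core proteins of every ribosome, and how reads that match both a member and its near-identical copies were counted cannot be seen from the table, so that levels of such genes are uncertain. Of the members, 64 had at least 100 counts in every library. Per library, the median member stood at 498 and 509 CPM at day 5, 334 and 291 at day 10, 283 and 302 at day 20, 157 and 154 in CD organoids, and 156 and 167 in adult mCD.

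From day 5 to day 10, RP genes fell nearly as a block. Of the 67 members, 63 were called lower (edgeR's quasi-likelihood test, adjusted p up to 0.05 by Benjamini-Hochberg over 24410 genes), in a comparison in which 16.9% of all genes tested were called lower and 15.8% higher. None was called higher by edgeR, and none reached an unadjusted p under 0.05 in that direction, with 0 higher by DESeq2 and by limma as well. The median log2 fold change was -0.70, a 1.63-fold lower level, where all genes tested had a median of 0.02. The members were tightly packed, with quartiles of -0.77 and -0.63. The small subunit genes had a median of -0.70 and the large subunit genes of -0.70.

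Members with the steepest fall included Rps25, a small subunit protein needed for some internal ribosome entry sites. Rps25 stood at 411 and 396 CPM at day 5 and at 236 and 199.8 CPM at day 10, a log2 fold change of -0.89 ± 0.08 (SE, adjusted p 4.11e-06). Both day 10 values lay well below both day 5 values. Rps3, which lines the mRNA entry channel, also fell by 0.89 on the log2 scale, Rpl32 by 0.88 and Rpl13 by 0.86. Among the called members with the smallest fall were Rpl10a at -0.47, Rps9 at -0.52 and Rplp0, the base of the stalk, at -0.53. The 4 members not called were Rps10 (-0.26, adjusted p 0.374), Rpl35a (-0.76, adjusted p 0.105), Rpl3l and Rpl24. Rpl35a is a large subunit protein whose 2 libraries differed at both days, at 52.8 and 128 CPM at day 5 and 34.0 and 72.8 CPM at day 10, so that the groups overlapped. At both days library 1 held the lower value, and each day 10 library lay below the day 5 library of the same number.

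Between day 10 and day 20 RP genes as a group did not move together. Only 4 members were called higher and 12 lower, where 13% of all genes were called higher and 16% lower, and the median log2 fold change was -0.11, against -0.10 over all genes. These counts depended on single libraries. Without the first day 10 library, 11 members were called higher and 4 lower with a median of 0.06, and without the second, 30 were called lower. Leaving out the first or the second day 20 library gave 2 or 6 called lower and 2 or 1 called higher. With CD organoid library 1 or 2 or the second adult mCD library left out, 2 members were called higher.

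**Figure D2:**
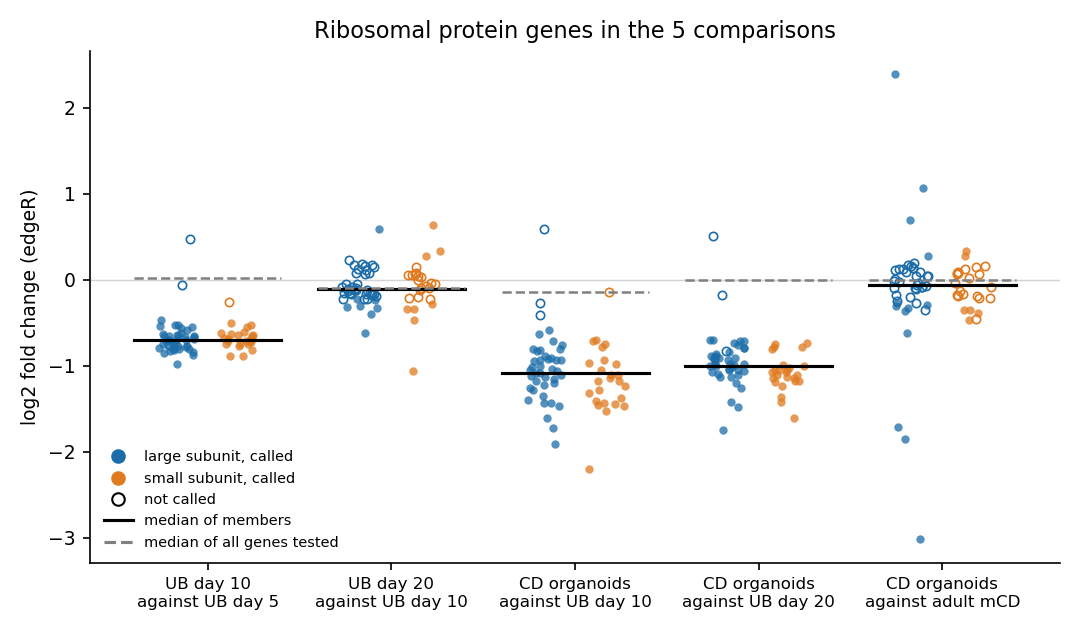
Log2 fold change (y axis) of each tested RP gene in the 5 comparisons (x axis), small and large subunit genes side by side; each point is a gene, filled where called, the black line the median of the members and the dashed line the median of all genes tested. The members lie around -0.70 for day 10 against day 5 and around -1.08 and -1.01 for CD organoids against days 10 and 20, but straddle 0 in the other comparisons. The lowest point against adult mCD is Rpl3l, whose fitted value depends on the prior count.

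The member that rose most from day 10 to day 20 was Rps27l, a paralogue of Rps27 that is known as a p53 target. Rps27l (chr9:66946086-66949516) stood at 110.2 and 90.3 CPM at day 5, 57.7 and 59.9 at day 10, 92.8 and 90.4 at day 20, 53.9 and 52.5 in CD organoids and 51.6 and 57.5 in adult mCD. It fell with the other members to day 10 (log2 fold change -0.77 ± 0.09) and rose to day 20 by 0.64 ± 0.09 (adjusted p 0.000195). In CD organoids it was lower than at day 20 (-0.78 ± 0.10, adjusted p 1.33e-05). Against day 10, CD organoids did not pass the test (-0.14, adjusted p 0.241). These comparisons share day 10, day 20 or CD organoid libraries, so that they are not independent. Its level within each library was 22.3, 20.7, 31.9, 31.8 and 28.1% of that of Rps27, in CPM, in the order day 5, day 10, day 20, CD organoids and adult mCD. On the log2 RPKM scale (pseudocount 1) that ratio was -1.50 ± 0.22 (SD, n = 2), -1.59 ± 0.27, -0.98 ± 0.11, -0.97 ± 0.0054 and -1.14 ± 0.058.

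A list of 8 p53 targets that are not RP genes gave these counts in the same comparisons. All 8 were lower at day 10 than at day 5 (median log2 fold change -1.32), against 16.9% of all genes. At day 20, 7 of 8 were higher than at day 10 (87.5%, against 13%, median 1.71). The exception was Cdkn1a at 0.24 with adjusted p 0.223. In CD organoids 7 of 8 were lower than at day 20 (87.5%, against 21.3%). Ccng1, encoding cyclin G1, stood at a mean of 343 CPM at day 5, 111 at day 10, 454 at day 20 and 175 in CD organoids. Mdm2, the ubiquitin ligase that degrades p53, stood at 131, 68.1, 144 and 51.0 CPM. Against day 10, CD organoids had 3 targets higher and 4 lower (37.5% and 50%, against 22.1% and 25.2% of all genes). Against adult mCD they had 2 higher and 3 lower (25% and 37.5%, against 23.8% and 26.1%).

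Another 3 members were called higher at day 20, Rpl30 (0.59, adjusted p 0.0474), Rps23 (0.33, adjusted p 0.00772), which helps to read the codon, and Rps2 (0.27, adjusted p 0.0455). Each of these calls was lost without at least 1 library. Rpl30 was not called without the first day 10 library (0.35), either day 20 library, either CD organoid library or the second adult mCD library, and Rps2 not without the second day 10 library (0.22), either day 20 library, or any CD organoid or adult mCD library. With the counts of its copies added, Rps2 was not called either (0.17, adjusted p 0.179). Rps23 missed the threshold without the second day 20 library only (adjusted p 0.0617). Members called lower with a mean RPKM of at least 10 were led by Rpl26 (-0.62), Rps14 (-0.47) and Rpl8 (-0.40), of which Rps14 and Rpl8 were not called without the first day 20 library. With copies added, Rpl26 stood at 0.01 and was not called (adjusted p 0.968).

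**Figure D3:**
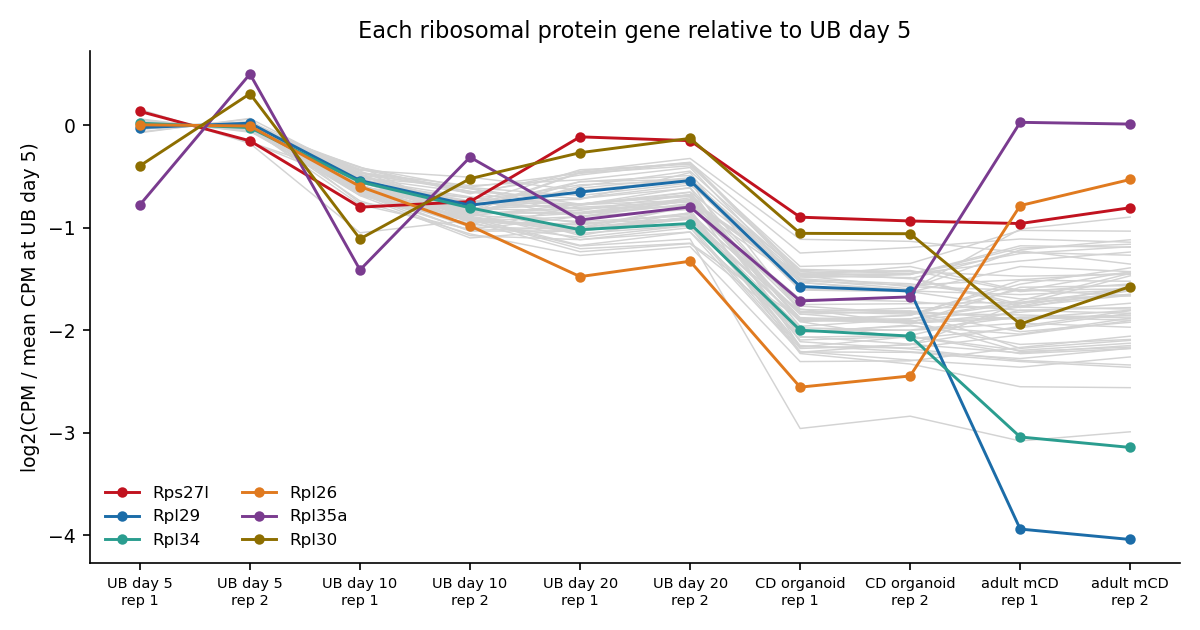
Level of the 64 RP genes with at least 100 counts in every library, as log2 of CPM over the gene's mean CPM at day 5 (y axis), in the 10 libraries (x axis); each line is a gene, grey unless named. Most lines fall together, while Rps27l turns up at day 20, Rpl29 and Rpl34 drop further in adult mCD and Rpl26 and Rpl35a turn up there.

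CD organoids had the lower RP level in both comparisons with UB organoids, which share the CD organoid libraries and are therefore not independent. Against day 10, 63 of 67 members were called lower and none higher (all genes, 25.2% lower and 22.1% higher), with a median log2 fold change of -1.08, a 2.12-fold lower level, against -0.15 over all genes. Against day 20, 64 were called lower and none higher (all genes, 21.3% and 21%), with a median of -1.01, a 2.01-fold lower level, against 0 over all genes. In neither comparison did a member reach an unadjusted p under 0.05 for a higher level by edgeR, and DESeq2 and limma called 0 members higher. The share of counts on RP genes was 2.32 times as large at day 10, and 2.14 times as large at day 20, as in CD organoids.

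The members with the lowest values relative to UB organoids differed in role. Rplp0, the scaffold of the stalk that recruits elongation factors, stood at 901 and 775 CPM at day 10, 739 and 793 at day 20 and 281 and 267 in CD organoids, with log2 fold changes of -1.61 ± 0.09 (adjusted p 3.17e-09) and -1.48 ± 0.09 (adjusted p 8.87e-09). The CD organoid values lay far below all 4 UB values. Rpsa, the small subunit protein also described as a laminin receptor, was lower than at day 20 by 1.60 on the log2 scale. Rps19, the gene most often mutated in Diamond-Blackfan anaemia, was lower by 1.43. Rpl12, at the foot of the stalk, was lower than at day 10 by 1.47 and than at day 20 by 1.42. Rpl26, which lies near the peptide exit tunnel, had the lowest value against day 10 among members with a mean RPKM of at least 10 (-1.72 ± 0.12, adjusted p 6.05e-08), but with the counts of its pseudogene copies added the value was -0.94.

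Other members changed less while still passing the test. Against day 10 these were Rpl15 (-0.59), Rpl19 (-0.64), Rps6 (-0.71), the substrate of S6 kinase, and Rpl23 (-0.71), and against day 20 Rpl27 (-0.70), Rpl10 (-0.70), Rpl8 (-0.71) and Rpl37a (-0.72). Among the members with lowest RPKM, Rps10 fell by 2.20 and Rpl13a, which is also known for silencing inflammatory mRNAs, by 1.91 against day 10. Rps10 had few counts, at 8.31 and 7.13 CPM of the library total at day 10 and 1.33 and 1.76 in CD organoids. The members that were not called were Rpl24, Rpl30, Rps27l and Rpl3l against day 10 and Rpl35a, Rpl24 and Rpl3l against day 20. The small subunit genes had a median of -1.17 against day 10 and the large subunit genes of -1.05, and against day 20 the medians were -1.08 and -0.96. The difference between the subunits was not tested.

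CD organoids and adult mCD differed little in RP genes as a group. Of the 67 members, 6 were called higher in CD organoids and 13 lower, below the 23.8% and 26.1% of all genes called in these directions, and the median log2 fold change was -0.07, against 0 over all genes. This balance rests on the scaling. Adult mCD had TMM composition factors of 0.792 and 0.793, against 0.999 to 1.12 in the other libraries. By library totals alone, 46 members were called higher in CD organoids and 4 lower, with a median of 0.33, while the median of all genes moved to 0.34 as well. Relative to all genes the members therefore stood at -0.07 with TMM and at -0.02 with library totals. With other libraries left out, the count lower was 23 without either day 10 library, and the count higher was 2 without CD organoid library 1 or adult mCD library 1.

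Within this near balance a few members stood apart, and those changes were far larger than the scaling shift. Rpl29 (chr9:106429454-106431568), a small basic large subunit protein that mice can survive without, stood at 214 and 220.5 CPM at day 5, 149.6 and 127 at day 10, 138 and 149.6 at day 20, 73.1 and 70.9 in CD organoids and 14.2 and 13.2 in adult mCD. The 2 adult values lay far below all 8 organoid values, and CD organoids were 5.24-fold higher (log2 fold change 2.39 ± 0.10, adjusted p 3.31e-10). With the counts of its copies added, the log2 fold change of Rpl29 was 1.95 (adjusted p 1.28e-09). Rpl34 (chr3:130726831-130730398), another large subunit protein, stood at 295 and 286, 198 and 166, 144 and 149.7, 72.8 and 69.9, and 35.4 and 32.9 CPM in the same order, and was 2.09-fold higher in CD organoids than in adult mCD (1.06 ± 0.09, adjusted p 4.37e-07). Its groups did not overlap.

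The other members called higher in CD organoids changed by less. Rpl30 stood at 55.4 and 55.3 CPM against 30.0 and 38.7 in adult mCD (0.69 ± 0.23, adjusted p 0.0211), Rps13 at a log2 fold change of 0.33, and Rps15a and Rpl12 at 0.28 each. The values of Rps13 and Rps15a changed when the counts of copies were added, to 0.02 (adjusted p 0.875) and 0.19 (adjusted p 0.0942). Both calls also depended on single libraries, that of Rps13 on the first of each group (adjusted p 0.0529 and 0.0532 without them) and that of Rps15a on any of the 4.

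**Figure D4:**
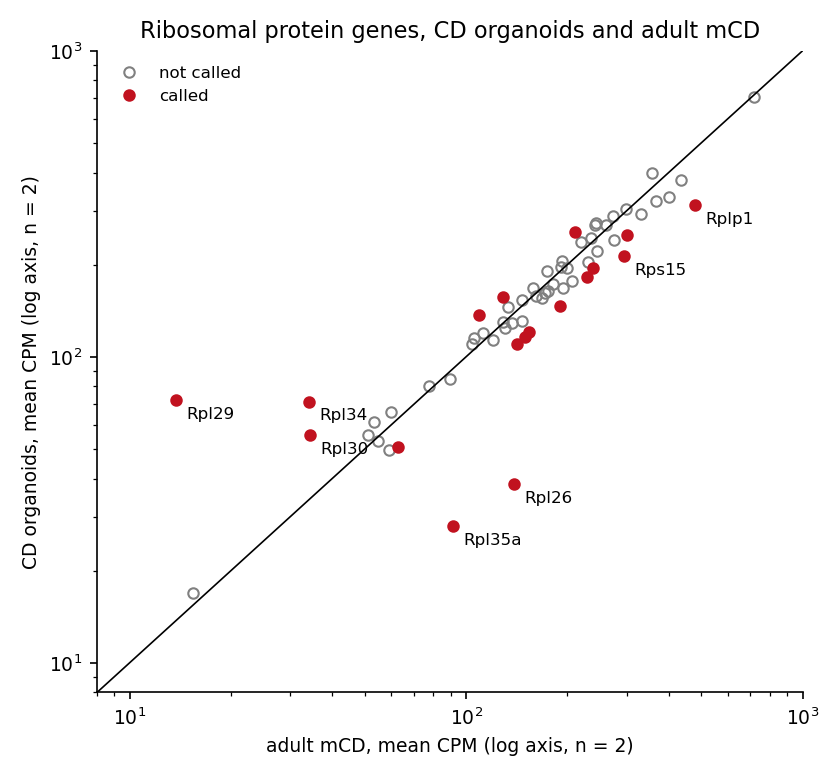
Mean CPM over 2 libraries of the RP genes in adult mCD (x axis) and CD organoids (y axis) on log axes, without Rps10, Rpl24 and Rpl3l, which lie below them; each point is a gene, filled where its adjusted p was 0.05 or less, and the diagonal marks equal levels. Most genes lie on the diagonal, with Rpl29 and Rpl34 on the CD organoid side and Rpl26 and Rpl35a on the adult side.

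On the adult side, Rpl35a (chr16:33056453-33060189) stood at 27.6 and 28.3 CPM in CD organoids and at 92.2 and 91.1 in adult mCD (log2 fold change -1.71 ± 0.37, adjusted p 0.00144). The adult values were not outside those of the UB organoids, which ranged from 34.0 to 128 CPM. Rplp1 was lower in CD organoids by 0.62 on the log2 scale, at 313 CPM against 480.1 (adjusted p 1.90e-05). As CPM of the library total, Rplp1 differed less, at 333 and 319 in CD organoids and 365 and 396 in adult mCD. Rps15 (-0.47) and Rps29 (-0.38), a small zinc-binding protein, were also called lower, but by library totals they stood at -0.07 and 0.01 and were not called. Rpl3l was seen in adult mCD with 34 counts over both libraries, 1.51 and 1.10 CPM, and in each other group with 2 or 3 counts, which is at the limit of detection, so that no fold is given (adjusted p 0.00379).

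Rpl26 (chr11:68901583-68906989) was the member whose value turned most on a near-identical copy. It stood at 218 and 216 CPM at day 5, 144 and 110.0 at day 10, 78.0 and 86.6 at day 20, 37.0 and 39.9 in CD organoids and 126 and 150.5 in adult mCD. CD organoids were 3.60-fold lower than adult mCD (-1.85 ± 0.13, adjusted p 3.22e-08). Gm15772, a processed copy (chr5:3236431-3236868, plus strand, GRCm38), matches the Rpl26 coding sequence with 2 differences over 438 bases. The stretch from base 157 to base 308, counted from the start codon, is shown with these differences in capitals, because within the aligned bases the gene and the copy differ only there.
Rpl26: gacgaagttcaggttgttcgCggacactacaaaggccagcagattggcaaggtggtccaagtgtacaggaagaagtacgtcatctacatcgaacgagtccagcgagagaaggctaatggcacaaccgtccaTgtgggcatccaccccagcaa
Gm15772: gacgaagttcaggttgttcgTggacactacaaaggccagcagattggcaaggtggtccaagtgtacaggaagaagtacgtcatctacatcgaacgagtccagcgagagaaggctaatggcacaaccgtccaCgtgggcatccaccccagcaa
Gm15772 stood at 100.5 and 96.3 CPM at day 5, 64.1 and 48.6 at day 10, 97.8 and 105.6 at day 20, 56.8 and 57.2 in CD organoids, and 0.75 and 0.08 in adult mCD, where it had 10 and 1 counts. In CD organoids and at day 20 the copy thus stood above Rpl26 itself, and in adult mCD it was nearly without counts. With the counts of all copies added to Rpl26, CD organoids differed from adult mCD by -0.55 (adjusted p 0.0015) and the difference between day 20 and day 10 was lost. Whether the organoids transcribe the copy or carry another sequence of either gene was not tested.

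**Figure D5:**
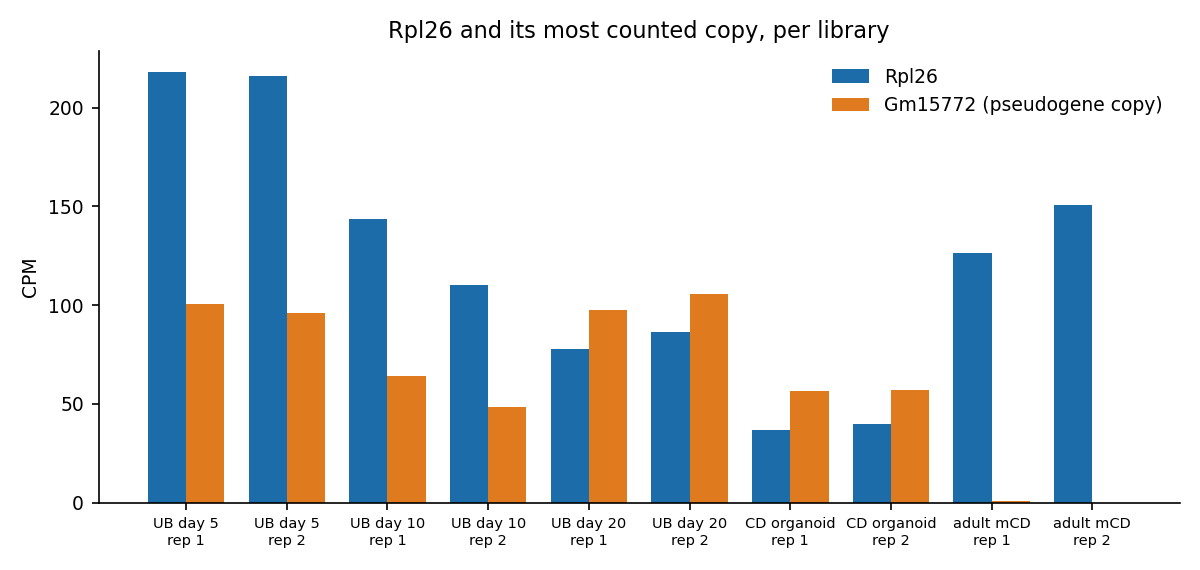
CPM (y axis) of Rpl26 and of its processed copy Gm15772 in each of the 10 libraries (x axis), with a pair of bars per library. Rpl26 lies between 37.0 and 39.9 CPM in CD organoids and at 126 and 150.5 in adult mCD, where the copy is at most 0.75 CPM.

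Several RP genes have a paralogue. Rpl10l, a testis form of Rpl10 with 84.7% identical coding bases, had 0 counts in every organoid group and 1 in adult mCD. Rpl22l1, a form of Rpl22, took 12.9, 15.4, 18.5, 12.5 and 24.5% of the CPM of Rpl22 at day 5, day 10, day 20, in CD organoids and in adult mCD, and CD organoids had a lower level of it than adult mCD (-0.80, adjusted p 4.67e-05). Rpl7l1, a nucleolar relative of Rpl7, stood at 9.13, 13.5, 12.7, 15.9 and 14.1% of it. Rps4l, a form of Rps4x, stood at 0.572% of its partner at day 20, 3.50% in CD organoids and 7.83% in adult mCD, as CPM, and its 2 libraries at day 10 differed, at 4.68 and 14.1 CPM. Rpl36al was by group mean at most 2.32% of Rpl36a. These forms were not members, apart from Rpl10l, Rpl3l and Rps27l.

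By role, the 3 stalk proteins (Rplp0, Rplp1 and Rplp2) were all called lower at day 10 than at day 5 and in CD organoids against either UB day. Of the pair that forms a particle with 5S rRNA and binds Mdm2, the member Rpl5 and Rpl11, which the table annotates differently, were both lower in the same 3 comparisons and not called in the other comparisons. Rps27a, made as a fusion with ubiquitin, was called lower in these 3 as well. Of 20 genes mutated in Diamond-Blackfan anaemia, 16 of them members, 18 were lower at day 10 than at day 5 (90%, against 16.9% of all genes). In CD organoids 20 were lower than at day 10 and 19 than at day 20 (100% and 95%, against 25.2% and 21.3%). From day 10 to day 20 the list had 4 lower (20%, against 16% of all genes), among them Rpl8 and Rpl26. Against adult mCD it had 2 higher and 4 lower (10% and 20%, against 23.8% and 26.1%).

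Other genes known for TOP mRNAs were mostly lower in the same comparisons. Of 21, 19 were lower at day 10 than at day 5 (90.5%, against 16.9% of all genes, median -0.68). In CD organoids 18 were lower than at day 10 (85.7%, against 25.2%, median -0.85). Against day 20, 18 were lower and 1 higher (85.7% and 4.76%, against 21.3% and 21%, median -0.67). Against adult mCD 2 were higher and 8 lower (9.52% and 38.1%, against 23.8% and 26.1% of all genes). From day 10 to day 20 6 were lower (28.6%, against 16%). Eef1a1, the factor that brings tRNA to the ribosome, stood at a mean of 7187 CPM at day 5, 4489 at day 10, 4485 at day 20, 2398 in CD organoids and 2895 in adult mCD. Of 10 elongation genes, 6 were lower and 1 higher at day 10 than at day 5 (60% and 10%, against 16.9% and 15.8% of all genes). In CD organoids 10 of 10 were lower against either UB day (against 25.2% and 21.3% of all genes). From day 10 to day 20 they had 2 higher and 0 lower by edgeR (20% and 0%, against 13% and 16% of all genes). Against adult mCD they had 1 higher and 6 lower (10% and 60%, against 23.8% and 26.1%).

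Initiation factors changed less evenly. Of 30, 16 were lower and 2 higher at day 10 than at day 5 (53.3% and 6.67%, against 16.9% and 15.8% of all genes). In CD organoids 20 were lower and 3 higher than at day 10 (66.7% and 10%, against 25.2% and 22.1%). Against day 20, 22 were lower and 1 higher (73.3% and 3.33%, against 21.3% and 21%). Against adult mCD 8 were higher and 9 lower (26.7% and 30%, against 23.8% and 26.1% of all genes). From day 10 to day 20 7 were higher and 3 lower (23.3% and 10%, against 13% and 16%). Pabpc1, the poly(A)-binding protein, was 0.98 lower on the log2 scale in CD organoids than at day 10, and Eif4b, a helper of the eIF4A helicase, 0.45 lower.

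Ribosome assembly genes were mostly lower in CD organoids, and in fewer cases at day 10 than at day 5. Of 44, 17 were lower and 4 higher at day 10 than at day 5 (38.6% and 9.09%, against 16.9% and 15.8% of all genes, median -0.13). In CD organoids 42 were lower than at day 10 (95.5%, against 25.2%, median -1.04). Against day 20, 38 were lower (86.4%, against 21.3%, median -0.93), with none higher by edgeR against either day. Npm1, a nucleolar chaperone, stood at 1462, 852, 815, 264 and 231 CPM from day 5 to adult mCD, and Ncl, nucleolin, at 1244, 1132, 1058, 485 and 586 CPM. Between the day 20 and day 10 libraries 6 were lower (13.6%, against 16% of all genes). Against adult mCD 13 were higher and 11 lower (29.5% and 25%, against 23.8% and 26.1%). Of 14 RNA polymerase I genes, 11 were lower in CD organoids against either day (78.6%, against 25.2% and 21.3% of all genes). In the other comparisons their shares lay nearer to those of all genes. At day 10 against day 5, 4 were higher and 3 lower (28.6% and 21.4%, against 15.8% and 16.9%). At day 20 against day 10, 1 was higher and 3 lower (7.14% and 21.4%, against 13% and 16%). Against adult mCD 4 were called in each direction (28.6%, against 23.8% and 26.1%). Of 10 host genes of small nucleolar RNAs, whose spliced RNAs also begin with TOP motifs, 8 were tested. All 8 were lower at day 10 than at day 5 and in CD organoids against either day (against 16.9, 25.2 and 21.3% of all genes). Gas5 stood at 253, 162, 162, 55.8 and 78.9 CPM from day 5 to adult mCD. Against adult mCD 5 of these 8 were lower (62.5%, against 26.1% of all genes) and 2 higher (25%, against 23.8%), with a median of -0.56. From day 10 to day 20 they had 1 higher and 0 lower (12.5% and 0%, against 13% and 16% of all genes).

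Of 16 genes that set growth signalling (Myc family, mTOR complex and their targets), 6 were lower and 1 higher at day 10 than at day 5 (37.5% and 6.25%, against 16.9% and 15.8% of all genes). In each other comparison 5 were lower (31.2%), with 3, 2, 3 and 4 higher, where between 16 and 26.1% of all genes were lower and between 13 and 23.8% higher. Eif4ebp1, the inhibitor of cap-dependent initiation that mTOR inactivates, fell from 117 CPM at day 5 to 37.1 at day 10 and 19.9 at day 20, and Mtor itself stood at 94.3, 96.5, 110.3, 129.8 and 173 CPM.

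The family genes that the rule did not take were counted in the same way. GENCODE M21 lists 11 of the 14 with a symbol of the rule but another annotation as protein_coding. Of these 14, 11 were lower at day 10 than at day 5, and 11 in CD organoids against either UB day. Each share was 78.6%, against 16.9, 25.2 and 21.3% of all genes, with medians of -0.68, -1.01 and -0.98. In CD organoids 1 was higher than at day 20 (7.14%, against 21%). From day 10 to day 20 these 14 had 1 lower (7.14%, against 16% of all genes). Against adult mCD they had 1 higher and 5 lower (7.14% and 35.7%, against 23.8% and 26.1%). Of 7 related genes with other symbols (among them Fau, Rack1, Rps3a1 and Rpl22l1), none was higher by edgeR in the first 4 comparisons. Lower were 4, 3, 5 and 5 (57.1, 42.9, 71.4 and 71.4%, against 16.9, 16, 25.2 and 21.3% of all genes). Against adult mCD 2 were higher and 1 lower (28.6% and 14.3%, against 23.8% and 26.1%). Rps3a1, which encodes a core small subunit protein, stood at 245 CPM in CD organoids and 56.3 in adult mCD (log2 fold change 2.12, adjusted p 1.68e-10), the same direction as Rpl29 and Rpl34.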

How the data were processed

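The authors deposited whole-number counts per gene. The study's methods describe trimming, alignment with STAR to mm10 and quantification of GENCODE M24 genes by the E/M model of Partek Flow, which shares reads among near-identical genes. The deposited RPKM values divide each count by a gene length, the sum of all exons, and by the library total times a TMM factor. The deposited scaled values, a signal, are counts brought to a common library total without a composition factor. Processing notes in the labels name FastQC 0.11.8, cutadapt 2.5, Trimmomatic 0.36, edgeR 3.28.1 and GRCm38.p6, and which route gave these counts was not tested.

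The counts were fitted by quasi-likelihood in edgeR 4.0.16 (R 4.3.3; TMM, prior count 1, Benjamini-Hochberg adjustment) in one fit of all 10 libraries. Genes with at least 10 counts over these libraries (24410) entered, and calls required an adjusted p of 0.05 or less. The fit had a common dispersion of 0.00831 and a median of 7.90 prior degrees of freedom. Standard errors were derived from the test statistic. CPM used TMM factors, and CPM per kb the principal transcript in GENCODE M21. Marker sums are CPM of the library total. Copies were found with BLAST+ 2.17.0 (at least 90% identity over at least 100 bases). Alternatives included DESeq2 1.42.0, limma 3.58.1 on the deposited scaled values, RLE factors, library totals, a replicate block, other thresholds and filters, and leaving out each library. Adding pseudogene copies to each member was chosen after the data were seen. Figures were drawn with matplotlib 3.10.9 in Python 3.11.15.

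Members and gene lists were chosen with earlier results of these data known. Genes named were both members of each paralogue pair, the 5 highest and 5 lowest by RPKM, per comparison the 4 called members with the highest and the 4 with the lowest change at a mean RPKM of at least 10, the 5 whose share of RP RPKM varied most, and examples of each list. Others were chosen after their values were seen. A few genes that this rule names are not reported here.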

Additional observations from a re-analysis of the deposited data

How the results depend on the processing

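The fall of RP genes from day 5 to day 10 and the lower level in CD organoids than in UB organoids kept their direction and nearly their counts under every alternative but the fold threshold. With calls limited to an adjusted p up to 0.01 and over 4-fold, 0 members were called lower at day 10 against day 5, 1 in CD organoids against day 10 and 0 against day 20. For CD organoids against day 20 the median was -1.07 by library totals and by limma on the deposited scaled values. For day 20 against day 10, the count higher was 2 by library totals, by limma and at 0.01, and 0 over 4-fold, and the count lower was 3 with only the 4 libraries compared, 4 at 0.01 and 0 over 4-fold; the cause was not tested. For CD organoids against adult mCD, the count higher was 46 by library totals, 47 by limma, 3 at 0.01 and 1 over 4-fold, and the count lower 4, 4, 22 with RLE factors, 23 with DESeq2, 24 with only the 4 libraries and 1 over 4-fold; the median turned to 0.33 by library totals and limma, since those leave out the composition factor. Among single genes, Rpl26 turned to 0.0098 for day 20 against day 10 with copies added, and Rps29 to 0.0101 for CD organoids against adult mCD by library totals and limma. With 1 library left out, the medians ranged from -0.86 to -0.58 (day 10 against day 5), -0.21 to 0.0603 (day 20 against day 10), -1.22 to -0.90 and -1.07 to -0.98 (CD organoids against days 10 and 20) and -0.08 to -0.04 (against adult mCD), the counts lower from 62 to 64, 2 to 30, 62 to 64, 63 to 65 and 9 to 23, and the counts higher from 1 to 11 (day 20 against day 10) and 2 to 6 (adult mCD). The share on RP genes was 8.75, 6.24, 5.41, 2.59 and 1.62% of summed RPKM from day 5 to adult mCD, 2.61, 1.22 and 1.06% over nuclear genes at day 20, in CD organoids and in adult mCD, 4.39, 2.71, 1.28 and 1.01% with the genes outside the rule (days 5 and 20, CD organoids, adult mCD), and 1.19% with pseudogene rows in CD organoids. The log2 ratio of Rps27l to Rps27 was -0.998 in CD organoids with scaled values and -0.996 with a pseudocount of 0.1, and with a pseudocount of 5 it was -0.85 in CD organoids and -1.01 in adult mCD. The replicate numbers were not taken as pairs, as the labels name no shared source. Deviations of same-numbered libraries correlated between -0.08 and 0.10 (the highest for days 5 and 10). These values cover all genes together and cannot show whether same-numbered libraries share a source. Single genes such as Rpl35a and the copy Rpl3-ps1 differed between libraries 1 and 2 in the same direction at days 5 and 10. Whether these libraries are pairs was not tested. With a replicate block the fit called 64, 10, 63, 65 and 14 members lower. It called 4 and 6 higher (day 20 against day 10, and CD organoids against adult mCD), with medians of -0.70, -0.11, -1.08, -1.01 and -0.07, and changed no other call. Each group has only 2 libraries, so that calls rest on the spread shared by all groups, and depth limits mainly Rpl3l, Rpl10l, Rpl24 and Rps10.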

Other observations

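The table lists 921 pseudogene copies of 64 members (at least 90% identity over at least 100 bases), and their counts came to 2.10 to 2.71 per 100 member counts in the libraries. A few copies differed strongly between groups or libraries, and were chosen after their values were seen. Rpsa-ps10, a copy of Rpsa, held 9488 and 4801 counts at day 5, 6609 and 3236 at day 10, 641 and 747 at day 20, 289 and 230 in CD organoids, and 5 and 1 in adult mCD. Rps2-ps13 held 786 counts or more in every organoid library and 13 and 0 in adult mCD. Gm14513, a copy of Rps3, held 394 and 360 counts at day 20 and 156 and 124 in CD organoids, against at most 4 in the other libraries. On the adult side, Rps13-ps1 held 333 and 350 counts and Gm11942, a copy of Rplp1, 377 and 434, against at most 3 and 12 elsewhere. Rpl3-ps1 differed between libraries of a group, with 465 and 21 counts at day 5 and 289 and 18 at day 10.

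Mitochondrial ribosomal proteins, a separate family encoded in the nucleus, were listed after the data were seen. Of 68 tested, 18 were lower and 3 higher at day 10 than at day 5 (26.5% and 4.41%, against 16.9% and 15.8% of all genes), and 10 lower and 4 higher at day 20 than at day 10. CD organoids had 20 lower and 4 higher than at day 10, and 15 lower and 9 higher than at day 20. The shares lower in these 3 comparisons, 14.7, 29.4 and 22.1%, lay near the 16, 25.2 and 21.3% of all genes. The shares higher, 5.88, 5.88 and 13.2%, lay below the 13, 22.1 and 21% of all genes. Against adult mCD 34 were lower (50%, against 26.1%) and 4 higher, with a median log2 fold change of -0.28. Mrpl12, which binds the mitochondrial RNA polymerase, stood at a mean of 58.4, 57.2, 55.6, 57.2 and 104.4 CPM from day 5 to adult mCD.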
